A study of Mus musculus with 8 samples.

Results

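The cell cycle and DNA replication genes examined here are 38 genes that a dividing cell switches on between late G1 and mitosis, read in newborn mouse liver. They comprise 17 genes of S phase and the G1/S transition, 20 genes of G2 and mitosis, and the G1 cyclin Ccnd1. They were taken from a fixed list of gene names on the array, with the brightest probe standing for each gene, and 36 of them were among the 23526 genes with enough signal to test out of 34741 named on the array. The livers came from 4 knockout pups, in which the maternal chromosome lacked the microRNA cluster miR-379/miR-410, and from 4 wild-type littermates, all C57BL/6J. Pups of both groups were delivered by caesarean at E19.5 (days after mating), kept warm, and killed 4 h later, and a fragment of the large lobe of each liver was used. The deletion was inherited and not limited to the liver. Each RNA was labelled with 1 dye and hybridised to 1 Agilent array, and the 8 arrays lay on 1 slide.

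Cells prepare for division in steps. In G1, cyclins D and E acting with their kinases release E2F transcription factors from the retinoblastoma protein, and E2F then switches on the genes that load the MCM helicase onto DNA and supply nucleotides. Later, cyclin A, cyclin B and CDK1 drive entry into mitosis, while FOXM1 and the B-MYB complex switch on the genes of the spindle, the kinetochore and the checkpoint. In the liver around birth, both hepatocytes and the red cell precursors that still occupy the organ divide, so a whole-liver extract reads these genes from a mixture of cells.

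The promoters of 2 S-phase genes and 2 mitotic genes are shown because the groups contrasted below differ in the letters they carry. Sequences are the 250 bases before the start of each gene, 5′ to 3′ in the direction of the gene, from RefSeq on build GRCm38.p6. They lie at chr1:128359706-128359955 on the minus strand for Mcm6, at chr11:98907901-98908150 on the plus strand for Cdc6, at chr10:69352913-69353162 on the minus strand for Cdk1 and at chr7:135716380-135716629 on the minus strand for Mki67. Capitals mark every match, on either strand, to the E2F letters (TTTCCCGC, TTTGGCGC, TTTCGCGC or TTTGCCGC), to the letters of the cell cycle homology region, called CHR (TTTGAA or TTCGAA), and to CCAAT.
Mcm6: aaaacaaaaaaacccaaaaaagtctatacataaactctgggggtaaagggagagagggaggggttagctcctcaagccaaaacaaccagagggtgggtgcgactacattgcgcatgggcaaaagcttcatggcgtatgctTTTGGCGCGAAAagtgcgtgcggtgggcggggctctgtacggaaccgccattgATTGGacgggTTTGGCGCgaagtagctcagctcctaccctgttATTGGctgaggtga
Cdc6: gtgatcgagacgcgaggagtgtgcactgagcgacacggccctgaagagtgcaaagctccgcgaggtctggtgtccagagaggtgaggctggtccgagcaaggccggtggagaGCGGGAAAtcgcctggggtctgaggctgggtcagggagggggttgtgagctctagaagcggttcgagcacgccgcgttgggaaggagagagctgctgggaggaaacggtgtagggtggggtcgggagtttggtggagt
Cdk1: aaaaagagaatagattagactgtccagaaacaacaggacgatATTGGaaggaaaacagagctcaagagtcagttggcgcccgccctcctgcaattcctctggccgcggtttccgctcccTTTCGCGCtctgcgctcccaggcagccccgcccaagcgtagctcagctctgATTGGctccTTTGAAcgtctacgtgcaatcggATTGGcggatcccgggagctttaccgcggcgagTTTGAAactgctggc
Mki67: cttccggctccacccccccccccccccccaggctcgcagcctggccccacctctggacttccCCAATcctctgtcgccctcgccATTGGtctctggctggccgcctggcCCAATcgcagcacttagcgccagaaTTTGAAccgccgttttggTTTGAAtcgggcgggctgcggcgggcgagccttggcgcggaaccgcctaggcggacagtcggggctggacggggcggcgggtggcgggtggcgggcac
In Mcm6 an E2F match began 110 bases before the start and another 47 bases before it, and the first overlapped a match on the opposite strand. In Cdc6 the single capital run is an E2F match read on the opposite strand, 138 bases before the start. Cdk1 carried an E2F match 131 bases before the start and CHR matches at 71 and 15 bases before it, and Mki67 carried CHR matches at 116 and 98 bases before its start.

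The same letters were counted in the window from 250 bases before to 50 bases after the start, which the RefSeq table gave for 30 of the 38 genes. E2F letters were present in 6 of 14 S-phase genes (Cdc6, Cdt1, Mcm3, Mcm5, Mcm6 and Mcm7, 42.9%) and in 1 of 16 mitotic genes (Cdk1, 6.25%), against 2.26% of all 32851 promoters in the table. CHR letters were present in 12 of 16 mitotic genes (75%) and in 3 of 14 S-phase genes (21.4%), against 19.2% of all promoters. CCAAT was present in 14 of 16 mitotic genes (87.5%) and in 9 of 14 S-phase genes (64.3%), against 37.4% of all promoters. Members were counted per gene, with a match in any promoter of the gene, while the 32851 promoters, of 27025 genes, were counted singly. A match is only a run of letters, and no binding was measured in these livers. Ccna2, Ccnd1, Gins1, Tpx2, Ccne2, Foxm1, Aurkb and Mcm4 had no promoter in the RefSeq table and were not searched.

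Of the spots on each array, 58.6% to 66.2% were well above background and none was saturated. Levels below are log2 signal relative to the array's 75th percentile, so they compare arrays and not genes. Mirg, a transcript of the deleted locus, had levels of -0.20, -0.31, -0.91 and -0.73 in knockout 1 to 4 and of 2.11, 2.24, 2.15 and 2.14 in wild type 1 to 4, a difference of -2.70 (SE 0.15, limma adjusted p = 0.000326). The female transcript Xist was well above background in knockouts 1, 2 and 4 and in no wild type, and the Y-linked Ddx3y was so in knockouts 3 and 4 and in wild types 1, 2 and 4. Knockout 4 thus carried both, wild type 3 carried neither, and the sexes were not balanced between the groups. In the knockout 4 array Xist had a level of -0.14, against 1.72 and 1.52 in knockouts 1 and 2, and in the wild type 4 array Ddx3y had a level of 1.39, against 2.21 in both wild types 1 and 2. Whether the number 4 arrays hold RNA of 1 pup each was not tested, and the counts are therefore also given without them. The column of an array on the slide followed genotype, so an effect of the column and of the deletion cannot be told apart.

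No cell cycle gene passed the test, and nearly all had a slightly higher mean in knockout livers. The limma fit called 0 of the 36 at an adjusted p under 0.05, against 0.217% of all genes (51 of 23526) in either direction. At an unadjusted p under 0.05 it gave 5 of 36 (13.9%), all higher in knockout livers, against 13.3% of all genes in either direction, 6.84% higher and 6.48% lower. That count was 1 of 36 without the number 4 arrays, against 3.45% of all genes in the higher direction, and with 1 array left out it ran from 2 (without wild type 1, knockout 3 or knockout 4) to 13 (without wild type 2). The mean was higher in knockout livers for 35 of 36 genes, all but Ccnd1, against 56.5% of all genes. The median difference over the 36 genes, knockout minus wild type, was 0.15, against 0.027 over all genes. For a single gene such differences are small, since the 95% interval reached a median of 0.26 to either side over all genes tested. That width reflects the spread among the livers within each group, and it does not apply to the median over the 36 genes. The interval included 0 for 31 of the 36 genes, and its bounds ran from -0.74 for Ccnd1 to 0.74 for Cdk1. In 1 of 36 genes, Cdk1, all knockout arrays lay above all wild-type arrays, against 4.72% of all genes. In none did all lie below, against 4.33% of all genes. Without the number 4 arrays, 34 of 36 genes had a higher mean in knockout livers, the median was 0.17, none was called, and 3 genes had groups that did not overlap, against 7.38% of all genes. A larger share of dividing cells and more RNA per dividing cell cannot be told apart in whole liver.

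**Figure D1:**
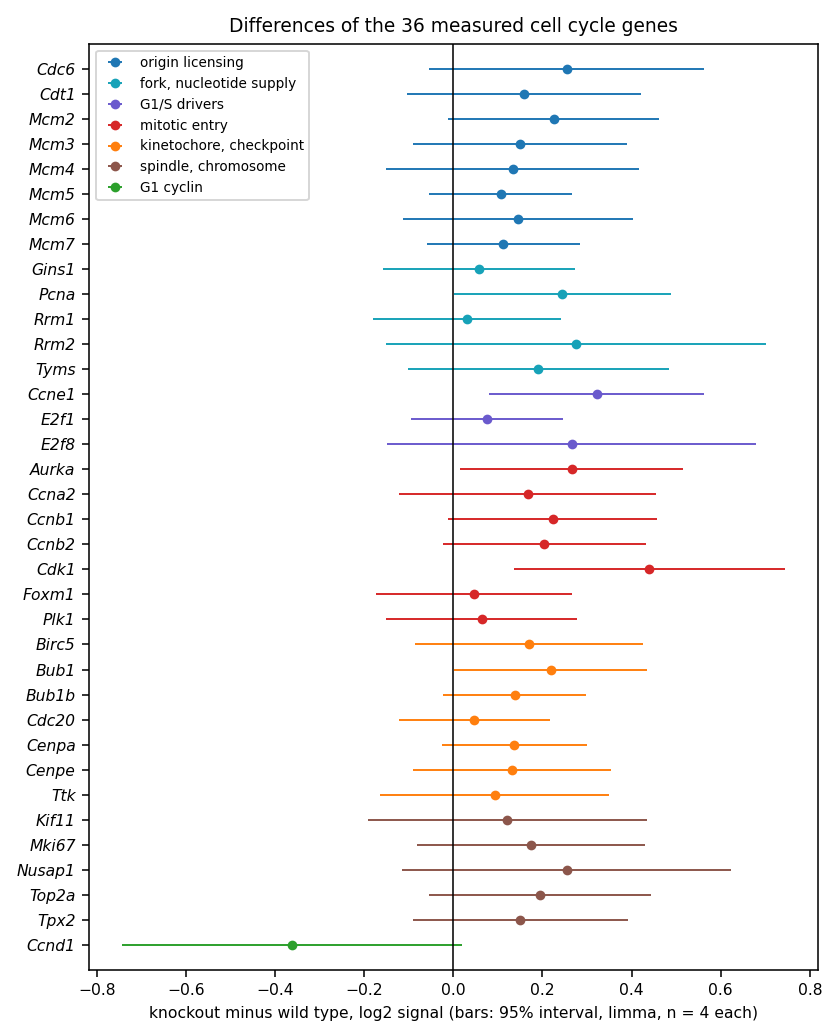
Difference between knockout and wild-type livers for each of the 36 measured cell cycle genes (x axis, log2 signal, knockout minus wild type), with genes down the page grouped by role; points are limma estimates and bars their 95% intervals (n = 4 each). Points lie right of 0 for 35 genes, and the bars of 31 genes cross 0.

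The first step of replication is the loading of the helicase. Mcm2 to Mcm7 encode the 6 subunits of the MCM helicase, and Cdc6 and Cdt1 encode the factors that place it on replication origins. All 8 licensing genes had a higher mean in knockout livers, with differences between 0.11 and 0.25 and a median of 0.15, and none was called. Mcm2 had levels of 2.34, 2.39, 2.77 and 2.65 in knockout 1 to 4 and of 2.31, 2.32, 2.27 and 2.35 in wild type 1 to 4. Knockouts 3 and 4 stood above every wild type, knockout 2 did so narrowly, and knockout 1 lay inside the wild-type range. The difference was 0.22 (SE 0.10, limma adjusted p = 0.399). Cdc6 had levels of 0.11, 0.076, 0.53 and 0.43 in the knockout arrays and of -0.13, 0.21, -0.12 and 0.17 in the wild-type arrays. The groups overlapped, with knockouts 3 and 4 again on top, and the difference was 0.25 (SE 0.13, limma adjusted p = 0.445). Mcm5 had levels of 3.90, 3.96, 4.12 and 4.04 in the knockout arrays and of 3.87, 3.88, 3.91 and 3.93 in the wild-type arrays. Here only knockout 1 fell among the wild types, and the difference was 0.11 (SE 0.070, limma adjusted p = 0.526). For Mcm3, Mcm4, Mcm6, Mcm7 and Cdt1 the differences were 0.15, 0.13, 0.14, 0.11 and 0.16, and limma's adjusted p lay between 0.532 and 0.652.

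All licensing genes but Mcm7 averaged higher in knockouts 3 and 4 than in knockouts 1 and 2. The mean of the 8 genes relative to the wild-type mean was -0.011, 0.051, 0.34 and 0.26 in knockout 1 to 4 and -0.071, 0.11, -0.054 and 0.011 in wild type 1 to 4. In that mean, knockouts 1 and 2 lay within the wild-type range, and knockouts 3 and 4 lay above it. Mcm7 had levels of 5.37, 5.46, 5.42 and 5.40 in the knockout arrays and did not show this order. With knockouts 3 and 4 left out, the differences were -0.0021 for Mcm3, -0.067 for Mcm4, -0.020 for Mcm6 and -0.011 for Cdt1. Those of the other 4 kept their sign, at 0.053 for Mcm2, 0.031 for Mcm5, 0.12 for Mcm7 and 0.060 for Cdc6. Ddx3y was well above background in knockouts 3 and 4, and also in wild types 1, 2 and 4. The part of sex in the order of the licensing genes was not tested.

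Downstream of loading, Pcna encodes the sliding clamp that holds the polymerases, Gins1 a subunit of the active helicase complex, Rrm1 and Rrm2 the subunits of ribonucleotide reductase, and Tyms the enzyme that makes thymidylate. Pcna had levels of 5.41, 5.52, 5.67 and 5.66 in knockout 1 to 4 and of 5.20, 5.58, 5.21 and 5.29 in wild type 1 to 4. Wild type 2 lay above knockouts 1 and 2 and the other 3 wild types lay below every knockout. The difference was 0.24 (SE 0.11, 1.18-fold, limma adjusted p = 0.374), with a 95% interval from 0.0015 to 0.49. Rrm2 differed by 0.28 (SE 0.19) and Tyms by 0.19 (SE 0.13), while Gins1 differed by 0.058 (SE 0.094) and Rrm1 by 0.031 (SE 0.093). None of these 4 was called, and limma's adjusted p lay between 0.537 and 0.899. The mean of the 5 genes relative to the wild-type mean was 0.028, 0.20, 0.18 and 0.23 in the knockout arrays and -0.21, 0.25, -0.070 and 0.031 in the wild-type arrays, so that wild type 2 was the highest of the 8.

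The drivers of the G1/S transition come before both steps. Ccne1 and Ccne2 encode E cyclins, E2f1 an activating E2F factor, and E2f8 an atypical E2F that represses E2F targets. Ccne1 had levels of 3.32, 3.39, 3.61 and 3.48 in knockout 1 to 4 and of 2.97, 3.34, 3.01 and 3.19 in wild type 1 to 4. Wild type 2 lay just above knockout 1, and otherwise the groups were apart. Ccne1 averaged 3.45 ± 0.12 in knockout livers and 3.13 ± 0.17 in wild-type livers (SD, n = 4 each), a difference of 0.32 (SE 0.11, 1.25-fold, limma adjusted p = 0.253) with a 95% interval from 0.081 to 0.56. A second Ccne1 probe gave a difference of 0.33. E2f1 had levels of 1.81, 1.85, 1.84 and 1.90 in the knockout arrays and of 1.62, 1.86, 1.76 and 1.86 in the wild-type arrays, with overlapping groups and a difference of 0.076 (SE 0.075, limma adjusted p = 0.67). E2f8 differed by 0.27 (SE 0.18, limma adjusted p = 0.543), with wild type 1 at 2.57 and the other 7 arrays between 3.24 and 3.52. Ccne2 had 1 probe, well above background on none of the 8 arrays, and no difference is given for it.

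**Figure D2:**
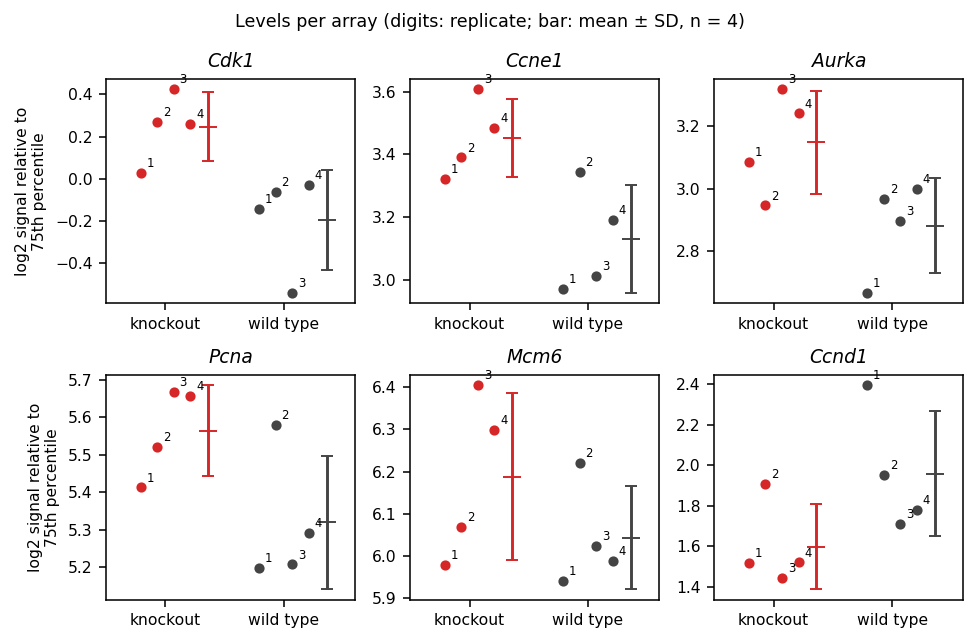
Level of Cdk1, Ccne1, Aurka, Pcna, Mcm6 and Ccnd1 on each array (y axis, log2 signal relative to the array's 75th percentile), knockout arrays left and wild-type arrays right in each panel; points are single arrays, numbered by replicate, and bars the group mean ± SD (n = 4 each). Cdk1 is the gene whose groups do not overlap, at 0.030 and above in knockout livers and at -0.028 and below in wild-type livers.

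Among the genes of mitotic entry, Cdk1 had the largest difference of the 36. Cdk1 encodes the kinase that starts mitosis, Ccna2, Ccnb1 and Ccnb2 its cyclins, Aurka and Plk1 kinases of the centrosome and spindle, and Foxm1 the transcription factor of the G2 and M genes. Cdk1 had levels of 0.030, 0.27, 0.42 and 0.26 in knockout 1 to 4 and of -0.14, -0.063, -0.54 and -0.028 in wild type 1 to 4. Every knockout array lay above every wild-type array, knockout 1 by a small margin. Cdk1 averaged 0.25 ± 0.16 in knockout livers and -0.19 ± 0.24 in wild-type livers (SD, n = 4 each), a difference of 0.44 (SE 0.13, 1.36-fold, limma adjusted p = 0.222) with a 95% interval from 0.14 to 0.74. Its two-sided exact permutation p was 0.0286, the smallest that the 70 assignments of 8 arrays can give, and it was not adjusted over the genes examined.

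The Cdk1 difference depended on the probe. The array held 3 Cdk1 probes, all on the minus strand of chromosome 10 in the files' mm9 coordinates. The brightest, at chr10:68801072-68801131, gave the values above. The probe at chr10:68799513-68799572 was well above background on all 8 arrays, with mean levels of -3.18 in knockout and -3.22 in wild-type livers. It gave a difference of 0.038 (SE 0.23). The probe at chr10:68801053-68801112 shares 41 of its 60 bases with the brightest one, was well above background on none of the arrays, and gave 0.17 (SE 0.24). The probes were not tested against each other. The brightest probe and the one it overlaps each have a GC content of 18.3%, at the low end of the range of 18.3% to 51.7% among the 36 probes used. For Birc5, Ccnb1, Ccne1, Cdc6, Foxm1, Mcm3, Mki67 and Tpx2, the further probes had the same sign as the one used.

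Aurka had levels of 3.09, 2.95, 3.32 and 3.24 in knockout 1 to 4 and of 2.66, 2.97, 2.90 and 3.00 in wild type 1 to 4. Knockout 2 lay inside the wild-type range and the other 3 knockouts above it, and the difference was 0.27 (SE 0.11, 1.20-fold, limma adjusted p = 0.352). Ccnb1 had levels of 3.82, 3.86, 3.73 and 3.66 in the knockout arrays and of 3.28, 3.72, 3.61 and 3.56 in the wild-type arrays. Only wild type 2 reached the knockout range, and the difference was 0.22 (SE 0.10, limma adjusted p = 0.398). Ccnb2 had levels of 5.29, 5.31, 5.41 and 5.41 in the knockout arrays and of 4.91, 5.37, 5.14 and 5.19 in the wild-type arrays. Again wild type 2 alone overlapped the knockouts, and the difference was 0.20 (SE 0.10, limma adjusted p = 0.419). Foxm1 had levels of 1.68, 1.93, 1.66 and 1.61 in the knockout arrays and of 1.51, 1.78, 1.68 and 1.74 in the wild-type arrays. Its groups overlapped widely, with a difference of 0.046 (SE 0.096, limma adjusted p = 0.852). Ccna2 differed by 0.17 (SE 0.13, limma adjusted p = 0.574) and Plk1 by 0.064 (SE 0.094, limma adjusted p = 0.784).

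The kinetochore and checkpoint genes hold chromosomes to the spindle and delay their separation. Bub1, Bub1b and Ttk encode checkpoint kinases or their relatives, Cdc20 the activator of the anaphase-promoting complex that the checkpoint blocks, Cenpa the centromeric histone, Cenpe a kinetochore motor, and Birc5 and Aurkb subunits of the chromosomal passenger complex. Bub1 had levels of 0.69, 0.71, 1.00 and 0.92 in knockout 1 to 4 and of 0.60, 0.74, 0.54 and 0.56 in wild type 1 to 4. Knockouts 3 and 4 lay above all wild types, and wild type 2 lay above knockouts 1 and 2. The difference was 0.22 (SE 0.095, limma adjusted p = 0.372). Differences of 0.14 for Bub1b, 0.14 for Cenpa, 0.13 for Cenpe, 0.17 for Birc5, 0.092 for Ttk and 0.047 for Cdc20 were not called, with limma's adjusted p between 0.433 and 0.798. The single Aurkb probe was likewise well above background on none of the 8 arrays. The GC content of the Ccne2 probe is 15.0%, against a median of 40.0% among the 36 probes used.

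The last group shapes chromosomes and the spindle. Mki67 encodes Ki-67, the coat protein of mitotic chromosomes used to count dividing cells, Top2a the enzyme that untangles DNA, Kif11 the motor that separates spindle poles, Tpx2 an activator of Aurora A, and Nusap1 a microtubule bundler. Mki67 had levels of 6.97, 7.05, 6.99 and 7.02 in knockout 1 to 4 and of 6.51, 7.05, 6.88 and 6.89 in wild type 1 to 4. The knockout arrays lay within a narrow band that wild type 2 shared, while wild type 1 lay well below the rest. The difference was 0.17 (SE 0.11, limma adjusted p = 0.518). Differences were 0.19 for Top2a, 0.12 for Kif11, 0.15 for Tpx2 and 0.25 for Nusap1, with limma's adjusted p between 0.466 and 0.712. The mean of these 5 genes relative to the wild-type mean was 0.13, 0.27, 0.18 and 0.14 in the knockout arrays and -0.37, 0.22, 0.049 and 0.10 in the wild-type arrays, so that wild type 1 alone lay far from the other 7.

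Ccnd1, the D cyclin that starts G1 progression in response to growth signals, was the gene with the opposite sign. It had levels of 1.52, 1.91, 1.44 and 1.52 in knockout 1 to 4 and of 2.39, 1.95, 1.71 and 1.78 in wild type 1 to 4. Knockout 2 lay inside the wild-type range and the other 3 knockouts lay below it, and wild type 1, the lowest array for most other members, was the highest here. The difference was -0.36 (SE 0.17, 0.78-fold, limma adjusted p = 0.397), with a 95% interval from -0.74 to 0.019.

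The median differences of mitotic and S-phase genes were not tested against each other, and their distance depended on the arrays and covariates used. The median difference was 0.17 over 19 mitotic genes and 0.15 over 16 S-phase genes, which leaves 0.013 between them before rounding. All members of both sets had a higher mean in knockout livers, from 0.046 to 0.44 among mitotic genes and from 0.031 to 0.32 among S-phase genes. At an unadjusted p under 0.05 there were 3 mitotic genes (Cdk1, Aurka and Bub1) and 2 S-phase genes (Ccne1 and Pcna). Without the number 4 arrays the medians were 0.19 for mitotic genes and 0.12 for S-phase genes. Without knockouts 3 and 4 they were 0.13 for mitotic genes and 0.054 for S-phase genes. With Xist as a covariate they were 0.16 for mitotic genes and 0.37 for S-phase genes. Xist was well above background in knockouts 1, 2 and 4 and in no wild type, so that fit can hardly separate it from genotype.

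The 2 sets were also set side by side array by array. The mean of the mitotic genes relative to the wild-type mean was 0.083, 0.21, 0.21 and 0.18 in knockout 1 to 4 and -0.19, 0.17, -0.047 and 0.063 in wild type 1 to 4. For the S-phase genes it was 0.029, 0.13, 0.28 and 0.25 in the knockout arrays and -0.16, 0.18, -0.051 and 0.032 in the wild-type arrays. S-phase genes were thus higher in knockouts 3 and 4 than in knockouts 1 and 2, and mitotic genes were level in knockouts 2, 3 and 4. Within the S-phase set that order was strongest in the 8 licensing genes, at -0.011, 0.051, 0.34 and 0.26 in knockout 1 to 4. The 5 fork and nucleotide genes were at 0.028, 0.20, 0.18 and 0.23, and the 3 measured G1/S drivers at 0.14, 0.24, 0.27 and 0.24. Those 2 groups were, like the mitotic genes, nearly level in knockouts 2, 3 and 4. The mean of knockouts 3 and 4 exceeded that of knockouts 1 and 2 for 11 of 19 mitotic genes (median 0.033) and for 13 of 16 S-phase genes (median 0.19), against 44.7% of all genes. Both knockouts 3 and 4 lay above every wild type for 7 of 19 mitotic genes and for 10 of 16 S-phase genes, against 16.5% of all genes. The S-phase mean minus the mitotic mean was -0.054, -0.080, 0.069 and 0.070 in the knockout arrays and 0.033, 0.0029, -0.0046 and -0.031 in the wild-type arrays. No test was made of this pattern, which was found in the arrays themselves.

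**Figure D3:**
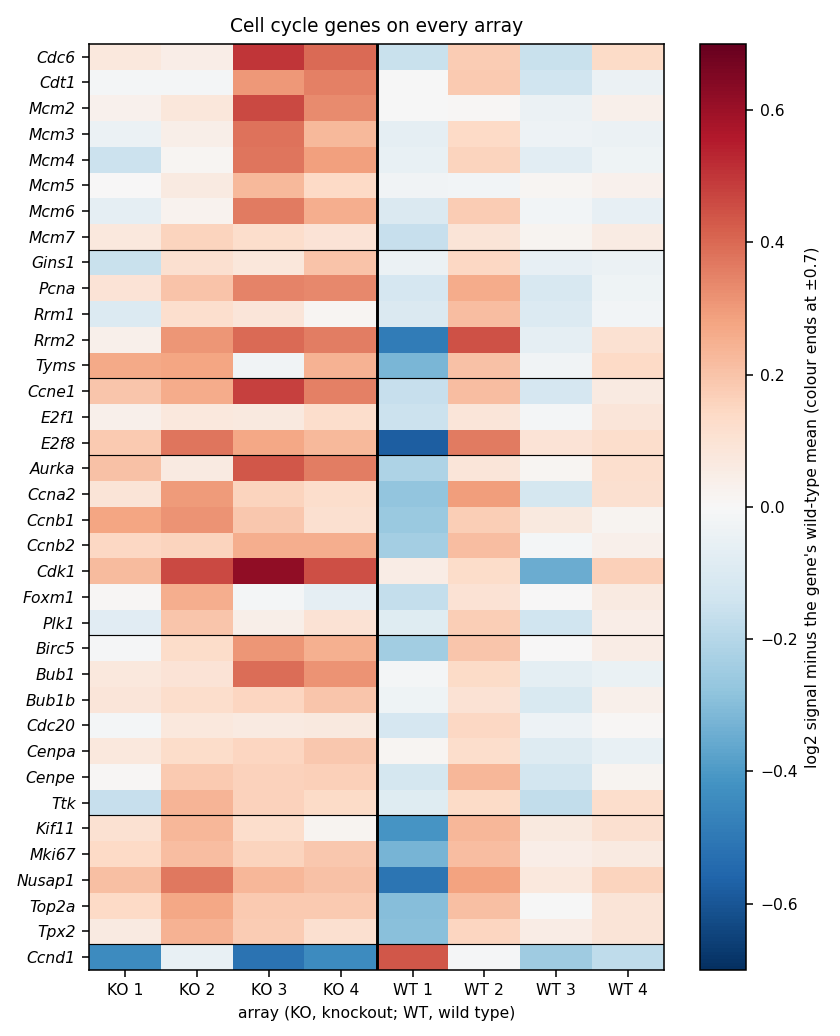
Level of each of the 36 measured cell cycle genes on each array relative to that gene's wild-type mean (colour, log2 signal), genes down the page by role and arrays across, knockout 1 to 4 left of wild type 1 to 4. Wild type 1 is the lowest column for 24 genes, and knockouts 3 and 4 average above knockouts 1 and 2 in 13 of 16 S-phase rows.

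One wild-type array was low for most of these genes. Wild type 1 was the lowest of the 8 arrays for 24 of the 36 genes, 12 of them S-phase and 12 mitotic, and wild type 3 was the lowest for 9. The highest array was knockout 3 for 13 genes, knockout 2 for 12, knockout 4 for 5 and wild type 2 for 5. In all, the highest array was a knockout for 30 of 36 genes, against 49.6% of all genes, and the lowest was a wild type for 33 of 36, against 59.1%. Wild type 2 lay above wild type 1 for 35 of 36 genes, with a median gap of 0.29, against 51.9% of all genes and a median of 0.015. That gap within the wild-type group was larger than the median difference between the genotypes. However, it lies between single arrays picked as the highest and lowest wild types, which are expected to differ more than group means. Without wild type 1 the median difference was 0.088 for mitotic genes and 0.11 for S-phase genes, and 32 of 36 genes still had a higher mean in knockout livers.

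The rest of the cell cycle machinery was read from lists chosen with earlier results of these data known. Among 58 further mitotic genes, 55 had a higher mean in knockout livers, 16 had an unadjusted p under 0.05 in that direction (27.6%, against 6.84% of all genes), none was called, and the median difference was 0.15. In 8 of the 58 all knockout arrays lay above all wild-type arrays (13.8%, against 4.72% of all genes). Without the number 4 arrays, 3 of the 58 had such a p, against 3.45% of all genes. With those arrays left out, 53 of the 58 had a higher mean in knockout livers and the median was 0.16. The groups then did not overlap in 11 of the 58, against 7.38% of all genes. Ncapg2, a subunit of condensin II, had levels of 2.81, 3.00, 2.92 and 2.91 in knockout 1 to 4 and of 1.93, 2.56, 2.19 and 2.20 in wild type 1 to 4. Its groups were apart by more than the knockout range, with a difference of 0.69 (SE 0.13, limma adjusted p = 0.084). The Ncapg2 probe lies at chr12:117701714-117701773 (mm9), on the chromosome of the deleted locus, where the Mirg probe lies at chr12:110987569-110987628. Whether the Ncapg2 difference comes from that linkage or from the cell cycle was not tested. The microtubule protein gene Ckap2 differed by 0.24 (SE 0.060, limma adjusted p = 0.156), and Cdca3, which acts in the degradation of mitotic inhibitors, by 0.29 (SE 0.078, limma adjusted p = 0.184).

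Among 46 further replication genes, 42 had a higher mean in knockout livers, against 56.5% of all genes, none was called, and the median difference was 0.11. At an unadjusted p under 0.05, 5 were higher, against 6.84% of all genes, and 1 was lower, against 6.48%. Without the number 4 arrays, 1 of the 46 was higher at such a p, against 3.45% of all genes, while 42 had a higher mean and the median was 0.10. Clspn, an adaptor of the replication checkpoint, differed by 0.40 (SE 0.11, limma adjusted p = 0.203), and Rpa2, a subunit of the single-strand binding complex, by 0.21 (SE 0.073, limma adjusted p = 0.280). Ung, which removes uracil from DNA, differed by -0.27 (SE 0.098, limma adjusted p = 0.292). Of 36 measured G1 regulators and inhibitors of cyclin-dependent kinases, 27 had a higher mean in knockout livers, against 56.5% of all genes. None was called, and the median was 0.15. At an unadjusted p under 0.05, 6 were higher (16.7%, against 6.84% of all genes) and 0 lower. In 3 all knockout arrays lay above all wild-type arrays (8.33%, against 4.72%). Without the number 4 arrays, 28 had a higher mean and 0 were higher at such a p. Differences were 0.25 for Cdkn3, a phosphatase of these kinases (SE 0.069, limma adjusted p = 0.193), and 0.43 for the stress gene Gadd45b (SE 0.16, limma adjusted p = 0.292). Mdm2, the ubiquitin ligase of p53, differed by 0.21 (SE 0.077), with a limma adjusted p of 0.308. The inhibitor gene Cdkn1a differed by -0.090 (SE 0.069, limma adjusted p = 0.579). The imprinted inhibitor gene Cdkn1c differed by 0.50 (SE 0.39, limma adjusted p = 0.590), with wild type 1 at 4.05 and the other 7 arrays between 5.48 and 6.18.

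**Figure D4:**
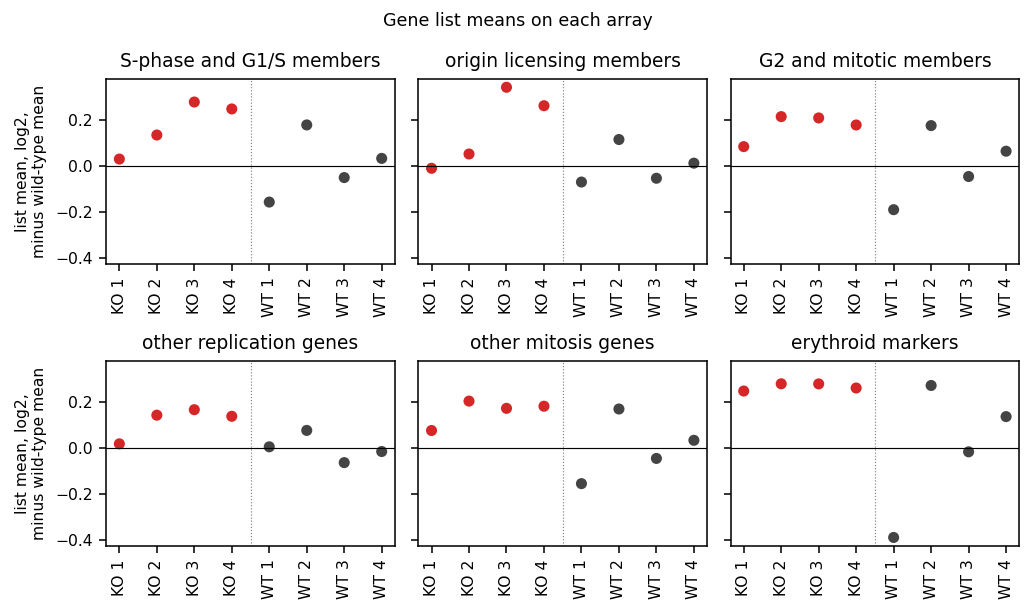
Mean level of each gene list on each array relative to its wild-type mean (y axis, log2 signal), with knockout arrays left of wild-type arrays; points are arrays and lists are named in the panels. Wild type 1 is the lowest array in the erythroid list, at -0.39, and in every cell cycle list but the other replication genes. In that list wild type 1 is at 0.0045 and wild type 3 is lowest, at -0.064.

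Markers of red cell precursors had the same order over the wild-type arrays as the mitotic genes, the S-phase genes and the list of G1 regulators. All 20 erythroid markers were well above background on all 8 arrays, 19 had a higher mean in knockout livers, none was called, and the median difference was 0.28. The mean of the list relative to the wild-type mean was 0.25, 0.28, 0.28 and 0.26 in knockout 1 to 4 and -0.39, 0.27, -0.017 and 0.14 in wild type 1 to 4. Wild type 1 was lowest, followed by wild types 3 and 4, and wild type 2 was level with the knockouts. The membrane skeleton gene Epb4.2 differed by 0.48 (SE 0.14), with a limma adjusted p of 0.213. Differences were 0.44 for the transferrin receptor gene Tfrc (SE 0.15, limma adjusted p = 0.265) and 0.39 for the ankyrin gene Ank1 (SE 0.14, limma adjusted p = 0.276). The part of the erythroid share in the cell cycle differences was not tested. Hepatocyte markers had a median difference of -0.041 with 4 of 16 higher, fetal hepatocyte markers 0.022 with 7 of 10 higher, granulocyte markers 0.023 with 9 of 13 higher and lymphocyte markers -0.15 with 4 of 17 higher. Stellate cell markers had a median of -0.26 with 0 of 10 higher, and megakaryocyte markers -0.15 with 0 of 10 higher. Macrophage markers had a median of -0.084 with 2 of 11 higher, endothelial markers -0.075 with 1 of 9 higher and cholangiocyte markers -0.12 with 0 of 6 higher. Wild type 1 was also the lowest array in the means of lymphocyte markers, at -0.41, and granulocyte markers, at -0.20. That array was the highest for macrophage and endothelial markers, at 0.22 in each. Called genes among these lists were Cyp2e1, a hepatocyte enzyme, and Ms4a1, a B cell antigen, both lower in knockout livers. Markers of 2 neighbouring tissues were also read. Pancreatic acinar markers had a median of -2.60. Their mean relative to the wild-type mean was -1.05, -2.27, 2.11 and 1.22 in wild type 1 to 4. The knockout arrays lay between -2.06 and -1.91, so that wild type 2 was below all of them. Skeletal muscle markers had a median of -1.58, with Myl1 called lower.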

How the data were processed

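Per the file headers, the authors' deposited scanner files hold intensity values from Agilent Feature Extraction, version 10.10 per the submitters' processing notes, background-subtracted within each array and not normalized between arrays. The authors also deposited a value table of 27084 probes on a log2 scale, used as an alternative; its columns followed log2 median signal (r of at least 0.99995) with medians of 8.84 to 8.86, and its centring and filter stay unknown.

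Spots were averaged per probe (55681 probes), 87 probes with no unflagged spot on some array were dropped, and probes were renamed through RefSeq accessions (27235) or synonyms (565). Log2 processed signal was scaled to each array's 75th percentile. Probes well above background on at least 4 of 8 arrays were kept, and the brightest stood for its gene. limma 3.58.1 in R 4.3.3 was fitted to all 23526 genes without covariates and was tested on simulated data. Its p-values were adjusted by Benjamini-Hochberg, with 0.05 as the threshold. The number of arrays limits the precision. Same-numbered arrays did not deviate together over all genes (r from -0.11 to 0.069). Such values cannot exclude a pairing of the pups by number, and the labels state none.

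The members and lists were chosen with earlier results of these data known, and the finer roles after their values were seen. Genes given array by array were the 5 with the smallest p per set plus Mki67, Pcna, Foxm1, E2f1 and Ccnd1, and of the other lists up to 3 genes with the smallest p are named, plus Cdkn1a and Cdkn1c. Alternatives changed the scaling, signal, filter, probe rule, variance model, block, sex covariate and arrays included.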

Additional observations from a re-analysis of the deposited data

Results flagged for a closer look

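In 6 of 86 groups of 4 arrays, 1 array stood far from the other 3 by Dixon's criterion, which chance alone meets in about 1 of 20 groups. In knockout livers, Tyms was at -1.30 in knockout 3, with the lowest of the others at -1.03. Ccnd1 was at 1.91 in knockout 2, with the other knockouts between 1.44 and 1.52. Knockout 1 was the low array for Cdc20, at 4.38 against 4.45 to 4.46 in the other knockouts, and for Cenpe, at 4.07 against 4.23 to 4.25. In wild-type livers, wild type 2 was the high array for Mcm3, at 4.51 against 4.31 to 4.34 in the other wild types, and for Gins1, at 2.17 against 1.97 to 1.98.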

How the results depend on the processing

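No member was called under any of the 22 alternatives, where the smallest adjusted p of a member was 0.092 for Cdk1 with Ddx3y as a covariate in limma. Of the medians, those that moved by more than their spread were the S-phase median, 0.37 with Xist as a covariate, and the mitotic minus S-phase median, -0.20 in the same fit. Xist was above background in knockout arrays alone, so that fit can hardly separate it from genotype. Leaving out 1 array at a time gave S-phase medians of 0.11 to 0.21 and mitotic medians of 0.088 to 0.23. Member differences that turned sign were Tyms at -0.060 and Foxm1 at -0.055 with Xist as a covariate, Gins1 at -0.0032 without both number 4 arrays, Rrm1 at -0.026 without wild types 3 and 4, and, without knockouts 3 and 4, Mcm3 at -0.0021, Mcm4 at -0.067, Mcm6 at -0.020, Cdt1 at -0.011 and Gins1 at -0.023. With 1 array left out, Rrm1 ran from -0.0030 to 0.10, Kif11 from -0.017 to 0.20 and Foxm1 from -0.024 to 0.083. The cause was not tested. With the replicate number as a block, which the labels do not state as a pairing, the medians were 0.15 and 0.17 as without it, 0 members were called, 3 had an unadjusted p under 0.05, and 19 genes were called in all. Calls over all genes, 51 as reported, were 147 with normexp and quantile scaling, 126 on median signal, 141 in the deposited table, 149 with a trended robust variance, 91 and 18 with Ddx3y and Xist as covariates, 19 with no filter, 6 without both number 4 arrays, 13 without wild types 3 and 4, 12 without knockouts 3 and 4, and 14 to 90 with 1 array left out.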
